A study of Caenorhabditis elegans with 2 samples.

Results

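The 9 genes described here encode the enzymes that build fatty acids and place their double bonds in the nematode Caenorhabditis elegans. They are pod-2, fasn-1 and the desaturase genes fat-1 to fat-7, chosen by name with earlier results of these data known. All 9 have a row among the 19874 genes analysed. Each row gives an expression level as RPKM, reads scaled by the authors to gene length and library size, in replicates 1 and 2 of 1 strain. The strain carries daf-2(e1370), a temperature-sensitive mutation in the gene of the insulin-like receptor, and daf-12(m20), a mutation in the gene of a steroid-binding nuclear receptor. Worms of mixed stages were grown at 20 °C on OP50 bacteria, and total RNA of whole worms was sequenced. The labels do not say whether the 2 samples came from separate cultures, so the spread between them may be technical. No wild type, daf-2 or daf-16;daf-2 sample was analysed here, so the levels below cannot be read as effects of the mutations, and no test between groups was possible.

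Fatty acid synthesis starts with acetyl-CoA carboxylase, which makes malonyl-CoA, and fatty acid synthase, which joins these units into the saturated palmitic acid. Desaturases then insert double bonds with electrons passed on by cytochrome b5, and elongases lengthen the chain between these steps. Unlike mammals, C. elegans makes polyunsaturated fatty acids without a dietary supply, because it also has a desaturase that turns oleic into linoleic acid and an omega-3 desaturase. In adults much of this synthesis takes place in the intestine and epidermis.

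Markers of adults, larvae and several tissues were present, and those of early embryos were low. Adult markers (the yolk protein genes vit-2, vit-5 and vit-6 and the collagen gene col-19) had a median level of 2828 RPKM, and 4 larval molting genes had a median of 42.4 RPKM. The 4 early embryo markers had a median of 0.23 RPKM, with end-1 listed at 0 in replicate 1, med-1 listed at 0 in replicate 2 and the highest, pes-10, at 1.94 and 1.73 RPKM. Intestinal markers ranged from 22.5 RPKM for elt-2 to 2538 RPKM for asp-1. In whole worms, fewer cells of a type and less RNA per cell cannot be told apart. The summed level of the 4 intestinal markers was 2789 RPKM in replicate 1 and 3093 in replicate 2, a difference that lay almost wholly in asp-1 (2387 and 2688 RPKM), while ges-1 was at 65.95 and 62.8 RPKM. All 3 germ line markers were lower in replicate 2, with sums of 419 and 357 RPKM. Of the 3 sperm markers, 2 were instead higher in replicate 2, with sums of 216 and 272 RPKM over all 3. Most of that difference lay in msp-19 (154 and 201 RPKM), while msp-31 was lower in replicate 2, at 0.49 and 0.18 RPKM. All 4 adult markers were lower in replicate 2 (sums of 11563 and 10758 RPKM). All 4 larval molting genes were higher there (sums of 170 and 178 RPKM). The part of these differences in the values below was not tested. From the steps between low values, replicate 1 was estimated to hold 10534000 reads and replicate 2 to hold 14628000. Over 1 kb of coding sequence, 3 reads (taken as the floor) then came to 0.285 and 0.205 RPKM. The floor and the intervals below cover counting error only.

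The 2 synthesis genes were expressed at moderate levels. pod-2, the gene of acetyl-CoA carboxylase, was at 68.1 RPKM in replicate 1 and at 68.35 in replicate 2, a mean of 68.2 ± 0.18 RPKM (SD, n = 2). fasn-1, the gene of the multidomain fatty acid synthase, was at 32.8 and 33.4 RPKM, a mean of 33.1 ± 0.42 RPKM. The level of pod-2 per length was thus higher than that of fasn-1 in both replicates, 2.08-fold in replicate 1 and 2.05-fold in replicate 2. Both are long genes, with 6498 bp and 7842 bp of coding sequence, so these levels rest on many reads. The estimates were 4661 and 6497 reads for pod-2 and 2710 and 3833 reads for fasn-1. In the WBcel235 annotation pod-2 lies on chromosome II from 1136785 to 1152705 on the plus strand, and fasn-1 on chromosome I from 8975366 to 8986540 on the minus strand. The coding exons of pod-2 share 139 bp with those of W09B6.4 on the other strand. The library kit named in the labels does not mark strand, so reads from that stretch cannot be assigned to either gene. W09B6.4 was at 21.1 and 15.4 RPKM.

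The 3 paralogs that insert the first double bond were expressed at very different levels. fat-6, whose product turns stearic into oleic acid, was at 572 RPKM in replicate 1 and at 566 in replicate 2, a mean of 569 ± 4.83 RPKM (SD, n = 2). fat-5, whose product acts on palmitic acid, was at 61.9 and 57.1 RPKM, a mean of 59.5 ± 3.42 RPKM. fat-7, whose product carries out the same reaction as that of fat-6, was at 3.92 and 3.22 RPKM, a mean of 3.57 ± 0.49 RPKM. The values of the 3 genes did not overlap, and the order was the same in both replicates.

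fat-6 made up most of the summed level of these paralogs. Its share was 89.7% in replicate 1 and 90.4% in replicate 2, that of fat-5 was 9.70% and 9.12%, and that of fat-7 was 0.61% and 0.51%. The level of fat-6 was 146-fold that of fat-7 in replicate 1 and 176-fold in replicate 2, a mean log2 ratio of 7.32 ± 0.19 (SD, n = 2). fat-7 was the only one of the 9 genes with few reads, 42 in replicate 1 and 48 in replicate 2 against 6150 and 8439 for fat-6. Exact binomial 95% intervals of the ratio, for counting error only, were 108-fold to 203-fold in replicate 1 and 132-fold to 238-fold in replicate 2. Both intervals lay above 100-fold, and they overlapped each other. fat-7 was nevertheless above the floor of 3 reads in both replicates. fat-6 and fat-7 are close paralogs, and how the authors' counting dealt with reads that match both is not given in the sources used here, so the low level of fat-7 is the less certain of the pair. fat-7 is known from other work as a gene that DAF-16 raises when DAF-2 signalling is low, and these data hold no strain with which its level could be compared. In WBcel235, fat-6 lies on chromosome IV from 11913692 to 11915687 and fat-7 on chromosome V from 7151353 to 7153146, both on the minus strand and both with 5 exons in the longest transcript. fat-5 lies on chromosome V from 17725004 to 17726818 on the plus strand, with 3 exons. Annotated genes on the opposite strand lie across part of fat-5, but none of them reaches its coding exons.

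The desaturases of the next steps were at or near the top of the 9 genes. fat-2, which encodes the enzyme that turns oleic into linoleic acid, was the highest, at 1063 RPKM in replicate 1 and at 1061 in replicate 2, a mean of 1062 ± 1.05 RPKM (SD, n = 2). fat-1, which encodes the omega-3 desaturase, was at 543 and 561 RPKM, a mean of 552 ± 12.7 RPKM. The level of fat-2 exceeded that of fat-1 by 1.96-fold and 1.89-fold and that of fat-6 by 1.86-fold and 1.88-fold. These are ratios within a library, so they do not depend on how the libraries were scaled to each other. fat-1 and fat-2 are neighbours on chromosome IV, on the plus strand, at 13315644 to 13318811 and at 13323873 to 13326395. They are 5061 bp apart with no annotated protein-coding gene lying wholly between them. Each has 3 exons in its longest transcript.

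The front-end desaturases, which add double bonds between an existing one and the carboxyl end, came next. fat-4, whose product makes arachidonic and eicosapentaenoic acid, was at 396 RPKM in replicate 1 and at 372 in replicate 2, a mean of 384 ± 17.2 RPKM (SD, n = 2). fat-3, whose product acts earlier on linoleic and alpha-linolenic acid, was at 187.5 and 188 RPKM, a mean of 188 ± 0.40 RPKM. The later-acting gene was thus the more abundant, by 2.11-fold in replicate 1 and 1.98-fold in replicate 2. The pair also lies side by side on the plus strand of chromosome IV, fat-4 from 9799429 to 9802226 and fat-3 from 9803023 to 9806119, with 796 bp between them. The levels of these adjacent genes did not overlap.

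**Figure D1:**
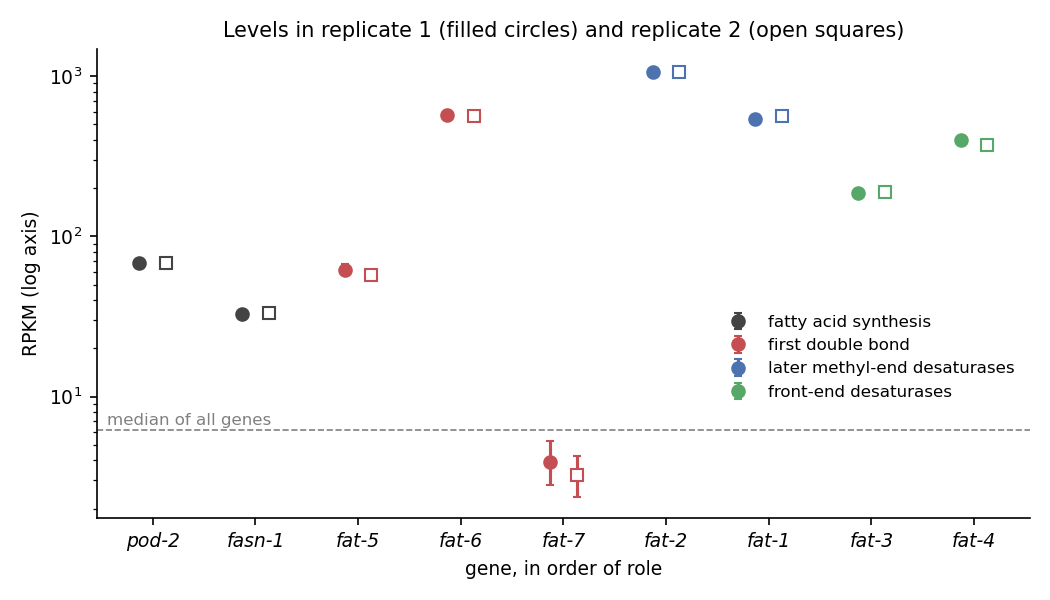
RPKM (log axis) of each gene in replicate 1 (filled circles) and replicate 2 (open squares), ordered by role and coloured by role; bars are exact Poisson 95% intervals from estimated reads, hidden by the symbol where narrow, and the dashed line is the median of all 19874 genes. fat-7 at 3.92 and 3.22 RPKM is the only gene under the line, while fat-2 is highest at 1063 and 1061 RPKM.

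Set in order of mean level, the genes ran fat-2, fat-6, fat-1, fat-4, fat-3, pod-2, fat-5, fasn-1 and fat-7. Of the 8 pairs of neighbours in this order, none had overlapping replicate values. In 2 pairs the counting intervals overlapped in 1 of the replicates. The lowest value of fat-6, 566 RPKM, and the highest of fat-1, 561 RPKM, lay closer than the SD of fat-1, and their counting intervals overlapped in replicate 2 (554 to 578 and 549.8 to 572 RPKM) but not in replicate 1. fat-6 was above fat-1 by 1.05-fold in replicate 1 and only 1.01-fold in replicate 2, so the order of this pair is uncertain. The counting intervals of pod-2 and fat-5 overlapped in replicate 1 (66.2 to 70.1 and 57.3 to 66.9 RPKM) but not in replicate 2. The other 6 neighbours were separated by at least 1.44-fold in their means, with no overlap of counting intervals in either replicate.

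Relative to the synthesis genes, 6 of the 7 desaturases were higher and 1 was lower. Against the mean level of pod-2 and fasn-1 in the same replicate, fat-2 was at 21.1-fold and 20.9-fold, fat-6 at 11.3-fold and 11.1-fold, and fat-1 at 10.8-fold and 11.02-fold. fat-4 was at 7.86-fold and 7.31-fold and fat-3 at 3.72-fold and 3.70-fold. fat-5 was close to the synthesis genes, at 1.23-fold and 1.12-fold, a mean log2 ratio of 0.23 ± 0.09 (SD, n = 2), and its level lay between those of pod-2 and fasn-1. fat-7 was at a mean log2 ratio of -3.83 ± 0.21. The median log2 ratio over the 7 desaturases was 2.97 in replicate 1 and 2.87 in replicate 2.

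**Figure D2:**
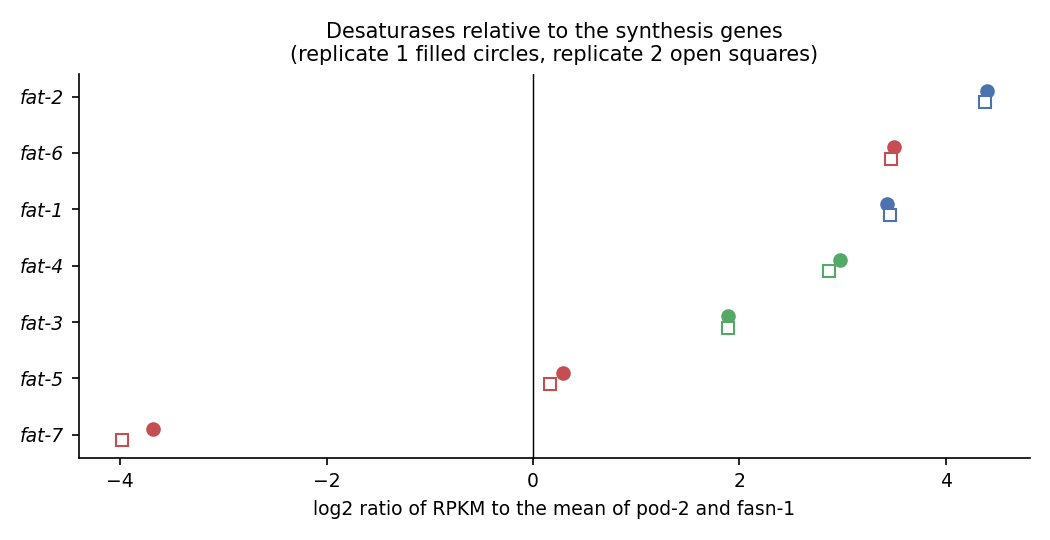
log2 ratio of the RPKM of each desaturase to the mean RPKM of pod-2 and fasn-1 in the same replicate (x axis), for replicate 1 (filled circles) and replicate 2 (open squares), with genes on the y axis coloured by role as in the plot of levels. Values run from a mean of -3.83 for fat-7 to 4.39 for fat-2, and only fat-7 lies left of the line at 0.

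As a set the genes were abundant. All 9 had a mean level of at least 1 RPKM, as did 72% of all genes. 5 of the 9 (fat-1, fat-2, fat-3, fat-4 and fat-6) had a mean of at least 100 RPKM, a level reached by 7.63% of all genes. All 5 are desaturase genes on chromosome IV, where fat-1 and fat-2 are neighbours, as are fat-4 and fat-3. The share of all genes on that chromosome was not calculated. The median of the 9 genes was 188 RPKM beside 6.17 RPKM for all genes, or 7.56 beside 2.84 on the log2(RPKM + 1) scale. fat-2 ranked 199 among the 19874 genes by mean level, fat-6 ranked 329 and fat-1 ranked 338. fat-4 and fat-3 were above 97.7% and 95.7% of genes, pod-2 and fat-5 above 89.3% and 87.9%, and fasn-1 above 79.6%. fat-7 was the exception, since it was above 42.7% of genes and so below the median gene. Of the 19874 genes, 0 were at 0 RPKM in both replicates. These medians, shares and ranks are therefore among genes with signal in at least 1 replicate. Summed over the 9 genes, RPKM came to 0.28% of the total of replicate 1 and 0.27% of that of replicate 2.

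**Figure D3:**
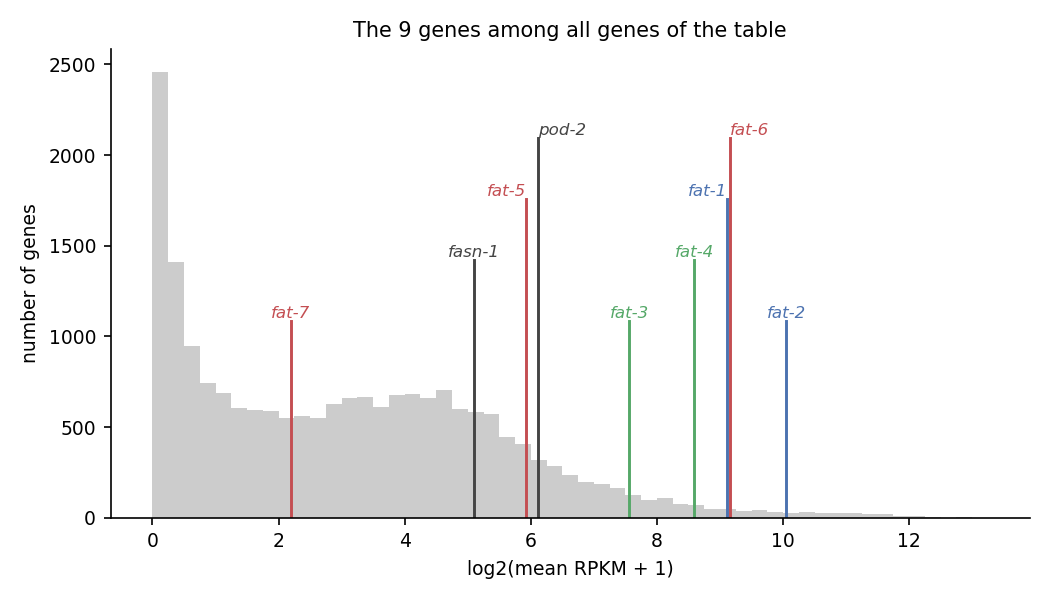
Histogram of log2(mean RPKM + 1) for all 19874 genes (grey; y axis, number of genes) with a vertical line at the level of each of the 9 genes, coloured by role as in the plot of levels; line heights only separate the names. fat-7 lies at 2.19, below the median gene at 2.84, and the other 8 genes lie from 5.09 (fasn-1) to 10.05 (fat-2).

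The 9 genes hardly differed between the replicates. The log2 ratio of replicate 2 to replicate 1, with 1 RPKM added to each value, ran from -0.22 for fat-7 to 0.05 for fat-1, and no gene was beyond 2-fold. Among the 14313 genes with a mean of at least 1 RPKM, 0.713% were beyond 2-fold. 4 of the 9 genes were higher in replicate 2 beside 44.2% of those 14313 genes. The median size of the log2 ratio was 0.03 over the 9 genes and 0.12 over the 14313 genes. For the 5 desaturase genes with a mean of at least 100 RPKM it was 0.02, beside 0.07 over all 1517 genes at that level. fat-2, fat-3, fat-6 and pod-2 differed between replicates by so little that the SD was under 1% of the mean. Their counting intervals within a replicate were wider than these SDs, for example 180.4 to 194.8 RPKM for fat-3 in replicate 1. Such an SD of 2 values is therefore not a measure of precision.

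For 2 of the 9 genes, fat-4 and fat-1, the difference between replicates was larger than counting error. This was so for 17.3% of the 13569 genes with a coding length and a mean of at least 1 RPKM, and for 45.2% of the 1479 such genes at 100 RPKM or more. fat-4 was lower in replicate 2, with a log2 ratio of -0.09 from estimated reads and an exact binomial 95% interval of -0.14 to -0.04. fat-1 was higher, at 0.05 with an interval of 0.002 to 0.09. The interval of each of the other 7 genes included 0. The genes called depended on the scaling of the replicates. fat-4 remained lower under the 3 scalings tried, whereas fat-1 was no longer beyond counting error with equal sums or quantile normalization, and fat-2 and fat-6 were lower in replicate 2 with quantile normalization. That of fat-7 was the widest, from -0.91 to 0.35, since it rested on the fewest reads.

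**Figure D4:**
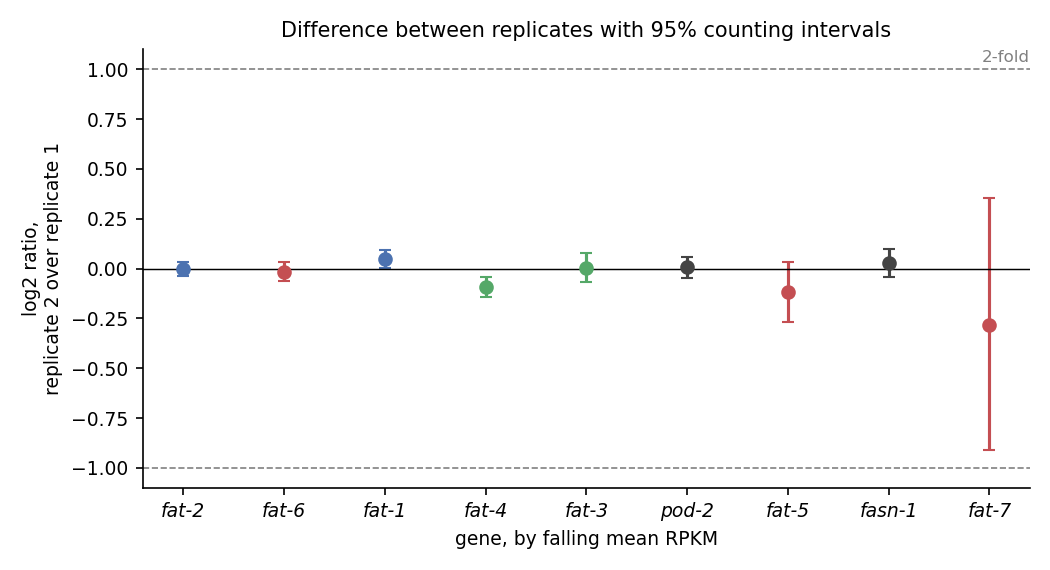
log2 ratio of replicate 2 to replicate 1 (y axis) for the 9 genes by falling mean RPKM (x axis), from estimated reads, with exact binomial 95% intervals for counting error and dashed lines at 2-fold; colours give the role as in the plot of levels. The intervals of fat-1 and fat-4 do not include 0, and the widest interval is that of fat-7, from -0.91 to 0.35.

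The level of other genes related to the route, including regulators and lipid storage genes, differed widely within most lists. Over 6 lists, 39 genes were found in the table, and all had a mean of at least 1 RPKM. Of these, 13 had a mean of at least 100 RPKM. With 1 RPKM added to each value none was beyond 2-fold between the replicates, and with nothing added 1 was, elo-7. The 12 genes of chain elongation had a median of 311 RPKM, and 7 were at 100 RPKM or more. The highest was the elongase gene elo-6 at 1377 and 1435 RPKM, and the lowest was elo-7 at 4.01 and 1.95 RPKM. The elongation list thus spanned about the range of the desaturases, from a gene near the level of fat-7 to one above fat-2.

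All 3 genes of electron transfer to desaturases were at 100 RPKM or more. The highest was the cytochrome b5 gene cytb-5.2 at 343 and 309 RPKM, and the lowest by mean level was hpo-19, a cytochrome b5 reductase gene, at 256 and 239.9 RPKM. The 8 genes of substrate and cofactor supply had a median of 53.6 RPKM, with 3 at 100 RPKM or more. The highest was idh-1, an isocitrate dehydrogenase gene of NADPH supply, at 606 and 637 RPKM, and the lowest was acly-1, an ATP citrate lyase gene, at 3.45 and 5.38 RPKM. Of the 2 other desaturase genes, F33D4.4 was at 49.4 and 51.2 RPKM, between fasn-1 and fat-5, and ttm-5, known for sphingolipid desaturation, was at 17.3 and 19.6 RPKM, between fat-7 and fasn-1. The 4 lipid storage genes found had a median of 48.8 RPKM, from atgl-1, a triglyceride lipase gene, at 23.8 and 22.0 RPKM to mboa-2, a diacylglycerol acyltransferase gene, at 86.03 and 77.7 RPKM.

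None of the 10 regulator genes reached 100 RPKM, and their median was 30.97 RPKM. The highest was nhr-49, a nuclear receptor gene known to promote expression of the first-double-bond desaturases, at 57.99 and 51.7 RPKM. The lowest was nhr-13, another nuclear receptor gene, at 5.88 and 7.74 RPKM. Each regulator was thus lower per length than the 6 most abundant of the 9 genes, and nhr-13, like all the others, was higher than fat-7.

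**Figure D5:**
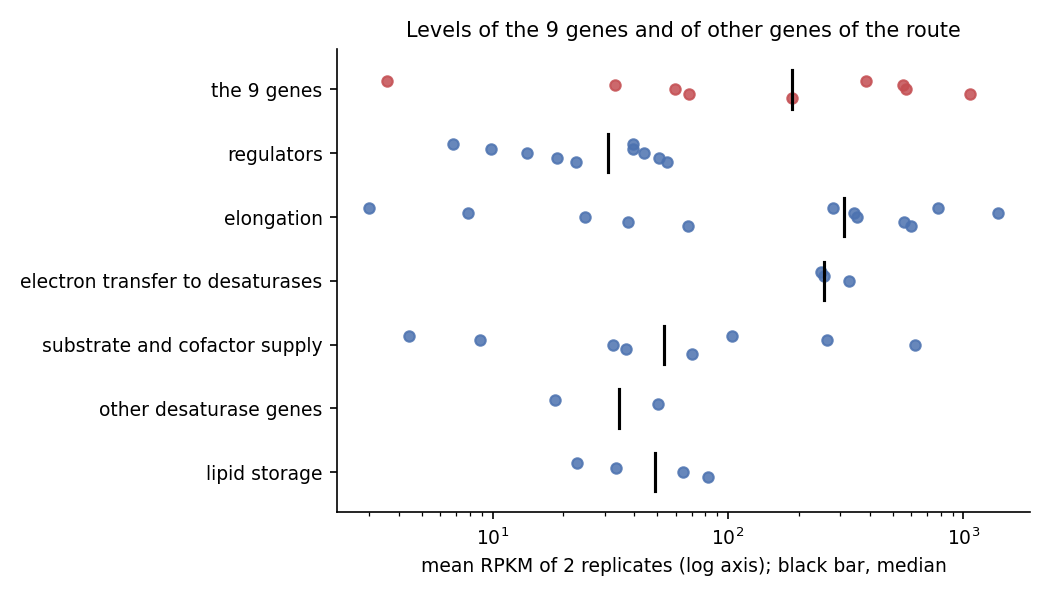
Mean RPKM of 2 replicates (x axis, log) of the 9 genes (red) and of the genes of 6 lists related to the route (blue). The lists include regulators and lipid storage genes. Each point is 1 gene, spread vertically only for legibility, and black bars are medians. The 9 genes have a median of 188 RPKM, between the 311 RPKM of elongation and the 30.97 RPKM of regulators, and span from 3.57 to 1062 RPKM.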

How the data were processed

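RNA sequencing libraries of total RNA were made with a TruSeq kit, per the labels' protocols, and the submitters' processing notes name CASAVA 1.8.2. How reads were aligned and counted, and on which build, is not given in the sources used here. Expression is in a single unit: the authors deposited RPKM values per gene and replicate, per the file headers. Each RPKM is relative to the whole library, so abundant genes that change move the values of all others.

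Commas used as digit separators were removed. Of 19990 rows, 104 that name a gene with coordinates and 12 that share a name were left out. Against the WBcel235 annotation (release 115), 15965 names matched a symbol, 2883 a sequence name and 1026 neither, and positions printed are those of WBcel235. RPKM times coding length gave whole reads, within 0.1 read, in 87.8% (replicate 1, 2928 values) and 88.3% (replicate 2, 2495 values) of cases up to 20 reads, where chance gives 20%, for genes with at most 1000 bp and 1 coding length. With transcript length the shares were 42.4% and 42.0%, so coding length was used. Each of these shares is the largest over the depths searched, whereas the 20% is for a depth fixed beforehand. Reads are estimates from these depths and the longest annotated coding sequence. Intervals are exact Poisson or binomial at a confidence level of 95%.

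Both samples form 1 group, so no p-value was calculated. The members and lists were chosen with earlier results of these data known. The 9 genes are all named, and of each list the highest and lowest gene. Lists hold 39 of 41 names: plin-1 was not matched, and ttm-5 stood under 2 names. Alternatives were pseudocounts, RPKM and fold limits, scaling, quantile normalization, each replicate alone, and, chosen after seeing the data, transcript length, a pseudocount of 1 and the ends of the Poisson interval for fat-7. Protein features and sequence shared by paralogs were not analysed here. The scripts were tested on simulated data. Calculations used scipy 1.17.1, pandas 2.3.3 and numpy 2.4.6 under Python 3.11.15, and plots matplotlib 3.10.9.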

Additional observations from a re-analysis of the deposited data

How the results depend on the processing

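Summary values were recomputed on both replicates under other settings, and a value counts once for each setting. Of these 29 recomputations, 21 stayed within the spread between replicates or, for counts, within 1.5 times. Values from 1 replicate alone are not counted here, since with 2 replicates they cannot leave that spread. Scaling replicate 2 to a median log2 ratio of 0 moved the median level of the 9 genes from 188 to 189 RPKM. The spread for this median was 0.40 RPKM, the SD of fat-3, whose counting interval in replicate 1 was 180.4 to 194.8 RPKM. A spread of 2 values can thus be narrower than counting error, and a value that moved need not exceed that error. The median log2 level of the 9 genes minus that of all genes was 4.72, 3.64 when only genes with a mean of at least 1 RPKM were compared and 4.90 with a pseudocount of 0.1. With each replicate rescaled to an equal sum of RPKM, 1 of the 9 genes rather than 4 was higher in replicate 2, and 1 rather than 2, fat-4, was beyond counting error, so the direction of these small differences depends on scaling. The log2 ratio of fat-6 to fat-7, 7.32, was 6.97 with a pseudocount of 1, and 6.90 and 7.78 with fat-7 at the upper and lower end of its Poisson interval, all 3 chosen after seeing the data. Each replicate alone gave 7.19 to 7.46 for this ratio. No value changed direction where a direction was called as deposited. fat-2 and fat-6 were called lower in replicate 2 only with quantile normalization. With replicate 2 scaled to a median log2 ratio of 0, their log2 ratios were 0.02 and 0.006. Among recomputations of single-gene values and background shares, 17 of 96 moved, 8 of them with transcript length, which lowered each level and kept the order of the 9 genes. The share of all genes beyond 2-fold, 0.713%, was 2.08% with a pseudocount of 0.1, 2.31% with none and 0.096% among genes with a mean of at least 10 RPKM, and 3.58% were beyond 1.5-fold. None of the 9 genes was beyond 2-fold in any setting run, nor beyond 1.5-fold as deposited. No paired analysis was possible because there is only 1 group. Depth limits fat-7, which rests on 42 and 48 reads.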
